A study of Mus musculus with 7 samples.

Results

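The genes described here encode 10 transcription factors and cofactors that specify heart muscle and keep its genes active in the adult: the zinc finger factors Gata4 and Gata6, the homeodomain factor Nkx2-5, the T-box factors Tbx5 and Tbx20, the basic helix-loop-helix factor Hand2, the MADS-box factors Mef2a, Mef2c and Mef2d, and the small homeodomain protein Hopx. They were taken by name from a table of 23847 gene rows, in which each had 1 row, and all 10 lay above the expression filter that left 11601 rows for testing. RNA came from ventricular tissue of male mice labelled as 12 weeks old, operated on at 8 weeks: in trans-aortic banding (TAB, 3 libraries) a nylon suture was tied around the aorta against a 27-gauge needle, which narrows the vessel and loads the left ventricle, and in the Sham group (4 libraries) the aorta was exposed without tying it. No strain or genetic change is labelled in either group, and no label says that each library came from its own animal, so p-values reflect how far the 7 libraries scatter, which may be technical. The age at operation follows the labels, and the series design text can also be read as placing the operation at 12 weeks. Values are FPKM, fragment counts scaled to transcript length and to the size of the library.

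These factors act as a network. GATA4, NKX2-5 and TBX5 bind enhancers of heart genes together and strengthen each other's binding, MEF2 factors bind the control regions of contractile and metabolic muscle genes and are held back by class II histone deacetylases, and HOPX, which does not bind DNA itself, restrains serum response factor through histone deacetylase 2. TBX20 is needed for adult cardiomyocyte function, and HAND2 is best known from the right ventricle and from the outer layer of the heart. In the pressure-loaded heart GATA4 and the MEF2 factors are known above all as endpoints of kinase signalling, which changes their activity rather than only their amount of RNA.

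Of the 10 factors, Tbx5, Mef2a and Hopx fell in TAB, none rose, and 7 were not called (limma, Benjamini-Hochberg adjusted p under 0.05 over all tested genes). Among all tested genes 20.3% were called, 13.3% higher and 7.05% lower; whether 3 of 10 exceeds these shares was not tested. Of all calls 65.3% were higher, a split that became 45.3% with median-of-ratios rescaling and 46.0% with quantile normalization, while the 3 factors were called lower under both. The median log2 fold change of the 10 factors was -0.04, against 0.04 over all tested genes, with 4 factors above 0 and 6 below. The groups did not overlap for the same 3 of 10 factors, near the 31.1% of all tested genes whose groups did not overlap, 11.2% with TAB lower. Groups without overlap were thus common in these data. At an unadjusted p under 0.05, Tbx20 was higher as well, while its adjusted p missed the threshold.

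**Figure D1:**
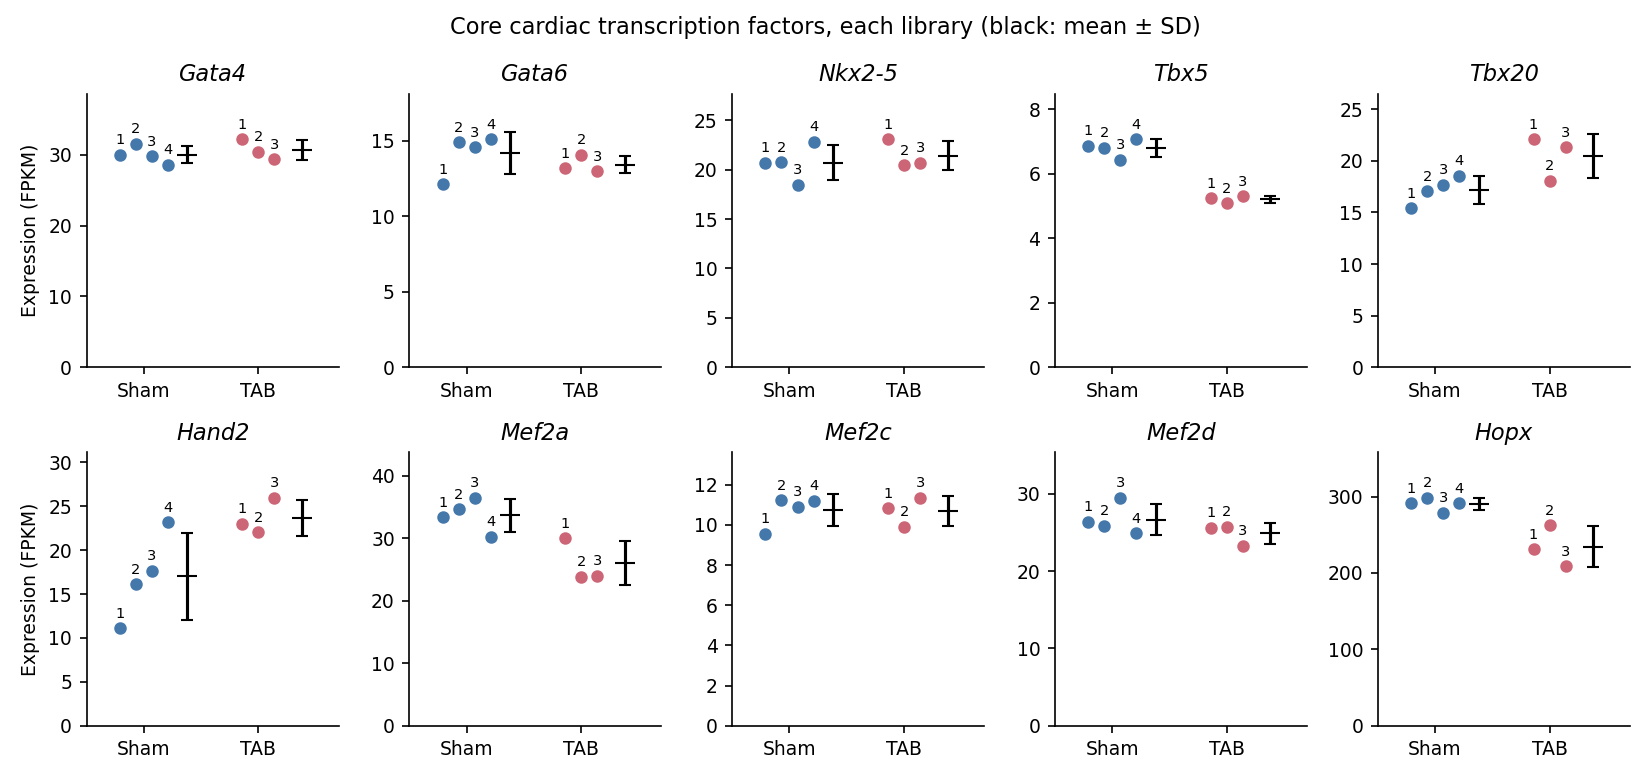
Expression (FPKM, linear axes from 0) of each factor in every library, with library numbers beside the points; blue points are Sham, red points TAB, and black marks give the mean ± SD. The TAB points of Tbx5, Mef2a and Hopx all lie under the lowest Sham point, and the 4 Sham points of Hand2 spread from 11.1 to 23.2 FPKM.

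Several features of the libraries bear on these values. Whole-fragment steps among low values put the depth at 21.6 to 24.4 fragments for 1 FPKM on a 2 kb transcript. Heart muscle markers were abundant in every library, with a summed level of 62970 to 68750 FPKM in Sham and 61710 to 68940 FPKM in TAB over 10 genes. Of these, 5 fell (Myh6, Tnnt2, Tnni3, Ryr2 and Pln) and 1 rose (Myoz2), beside 7.05% lower and 13.3% higher among all tested genes. The largest part of the sums was Myl2 (mean 23066 FPKM in Sham and 23738 in TAB), which was not called, so similar sums do not mean unchanged markers. Beside 13.3% of all tested genes called higher, fibroblast markers rose in 7 of 9 (778 to 888 FPKM summed in Sham, 955 to 1164 in TAB), endothelial markers in 4 of 8 (225 to 255 and 267 to 300 FPKM), smooth muscle and pericyte markers in 5 of 8 (242 to 251 and 272 to 308 FPKM) and macrophage markers in 2 of 7 (191 to 217 and 210 to 266 FPKM), and the part of these shifts in the values of the 10 factors was not tested. In bulk tissue fewer cells of a type and less RNA per cell cannot be told apart. Atrial transcripts (Sln, Myl7 and Myl4 summed) varied from 38.7 to 282 FPKM in Sham and from 31.9 to 302 FPKM in TAB, highest in Sham 2 and TAB 3. Of 7 skeletal muscle markers, Ckm, which heart muscle also expresses, and Pvalb passed the filter, and neither was called. Sham 4 had the highest Tnnt3 (3.06 FPKM, at most 0.886 elsewhere) and Myh4 (0.606 FPKM, at most 0.0173 elsewhere). Actn3, Myh1, Pvalb and Ckm were also highest in Sham 4, while Myh2 was highest in Sham 1 (0.0331 FPKM). Whether skeletal muscle RNA in Sham 4 had a part in other values was not tested.

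Hopx was by far the most abundant of the 10. It lay at the 97.4th percentile of tested genes by mean FPKM, and its Sham mean was 8.61 times that of the next factor, Mef2a. In Sham, Mef2a, Gata4 and Mef2d followed at 33.7, 29.99 and 26.7 FPKM, then Nkx2-5, Tbx20, Hand2 and Gata6 between 20.7 and 14.2, Mef2c at 10.7 and Tbx5 last at 6.80. Neighbours in this order overlapped in their Sham ranges from Mef2a to Mef2d and from Nkx2-5 to Gata6, while Hopx, Mef2c and Tbx5 stood apart from the factors next to them. In TAB, Gata4 led the group from Mef2a to Mef2d, with its range (29.4 to 32.2 FPKM) above that of Mef2d (23.3 to 25.8 FPKM).

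Of the T-box factors Tbx5 fell and Tbx20 was not called. Tbx5 (chr5:119834663-119885218, mm10), which drives the genes of calcium handling and conduction, was 6.87, 6.81, 6.44 and 7.07 FPKM in Sham 1 to 4, against 5.24, 5.09 and 5.30 FPKM in TAB 1 to 3. Every TAB library lay under every Sham library, and the SD within each group was small (0.266 in Sham and 0.104 in TAB). The mean was 23.3% lower in TAB, a log2 fold change of FPKM + 1 of -0.33 ± 0.06 SE (limma adjusted p = 0.00438). The call of Tbx5 held in each of 18 alternative fits, with log2 fold changes from -0.39 to -0.31 and adjusted p from 0.00181 to 0.032. Leaving out Sham 2 together with TAB 3, where atrial RNA was highest, gave -0.34 (limma adjusted p = 0.032). With the mean log2 level of Sln, Myl7 and Myl4 as a covariate it was -0.33 (limma adjusted p = 0.00732). Beyond these fits, a part of atrial RNA in the Tbx5 values was not tested.

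Tbx20 (chr9:24720812-24774303), which both activates and represses genes of the adult heart muscle, was 15.4, 17.1, 17.7 and 18.6 FPKM in Sham 1 to 4, against 22.1, 18.1 and 21.3 FPKM in TAB 1 to 3. TAB 1 and TAB 3 lay above all Sham libraries and TAB 2 lay under Sham 4. Its log2 fold change of 0.24 ± 0.08 SE (95% interval 0.06 to 0.42) had a limma adjusted p = 0.057. It was called higher in 4 of 18 alternative fits, for example without TAB 2 (0.32, adjusted p = 0.0162) or with array weights (adjusted p = 0.0292), and had an adjusted p of 0.238 without Sham 2 and TAB 3. Tbx5 made up 30.9%, 28.5%, 26.7% and 27.6% of the summed FPKM of both genes in Sham 1 to 4, against 19.2%, 21.98% and 19.9% in TAB 1 to 3. This share thus went from 28.4% ± 1.80 (SD, n = 4) to 20.3% ± 1.46 (SD, n = 3) with no overlap. Tbx20 exceeded Tbx5 by 2.53 ± 0.217 times (SD, n = 4) in Sham and 3.93 ± 0.345 times (SD, n = 3) in TAB.

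Of the MEF2 genes Mef2a fell and the other two were not called. Mef2a (chr7:67233827-67372858), the most abundant MEF2 gene in Sham, was 33.3, 34.6, 36.5 and 30.2 FPKM in Sham 1 to 4, against 30.04, 23.9 and 24.0 FPKM in TAB 1 to 3. TAB 1 lay just under Sham 4, and TAB 2 and TAB 3 lay well under every Sham library. Its mean fell from 33.7 ± 2.64 (SD, n = 4) to 26.0 ± 3.51 FPKM (SD, n = 3), which is 22.9% lower, with a log2 fold change of -0.37 ± 0.09 SE (limma adjusted p = 0.0147). The call was lost without TAB 2 (adjusted p = 0.0512), without TAB 3 (0.0572) and without both Sham 2 and TAB 3 (0.114), where the log2 fold changes were -0.31, -0.32 and -0.30. Over all 18 alternative fits the adjusted p of Mef2a ranged from 0.00473 to 0.114.

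Mef2d and Mef2c were not called. Mef2d (chr3:88142395-88169167) was 26.4, 25.9, 29.5 and 24.9 FPKM in Sham and 25.6, 25.8 and 23.3 FPKM in TAB (log2 fold change -0.09, 95% interval -0.24 to 0.05, limma adjusted p = 0.346). Mef2c (chr13:83504034-83667079), the family member required for heart tube looping, was 9.57, 11.2, 10.9 and 11.2 FPKM in Sham and 10.8, 9.90 and 11.4 FPKM in TAB (log2 fold change -0.00, 95% interval -0.16 to 0.16, adjusted p = 0.984). The groups overlapped for both genes. The summed level of the 3 genes was 71.1 ± 4.49 FPKM (SD, n = 4) in Sham and 61.6 ± 4.28 FPKM (SD, n = 3) in TAB. Within it Mef2a made up 48.1%, 48.3%, 47.5% and 45.6% in Sham 1 to 4, against 45.1%, 40.1% and 41.0% in TAB 1 to 3, so that the groups did not overlap but TAB 1 and Sham 4 lay close together. Mef2d went from 37.5% ± 1.01 (SD, n = 4) to 40.5% ± 2.46 (SD, n = 3), also without overlap, though TAB 1 (38.55%) lay just above Sham 3 (38.37%), and Mef2c from 15.1% ± 1.42 to 17.4% ± 1.68 with overlap. The difference in the Mef2d share was 2.995 percentage points with all libraries and 1.61 without TAB 2, and that in the Mef2c share 2.29 and, without TAB 3, 1.33.

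**Figure D2:**
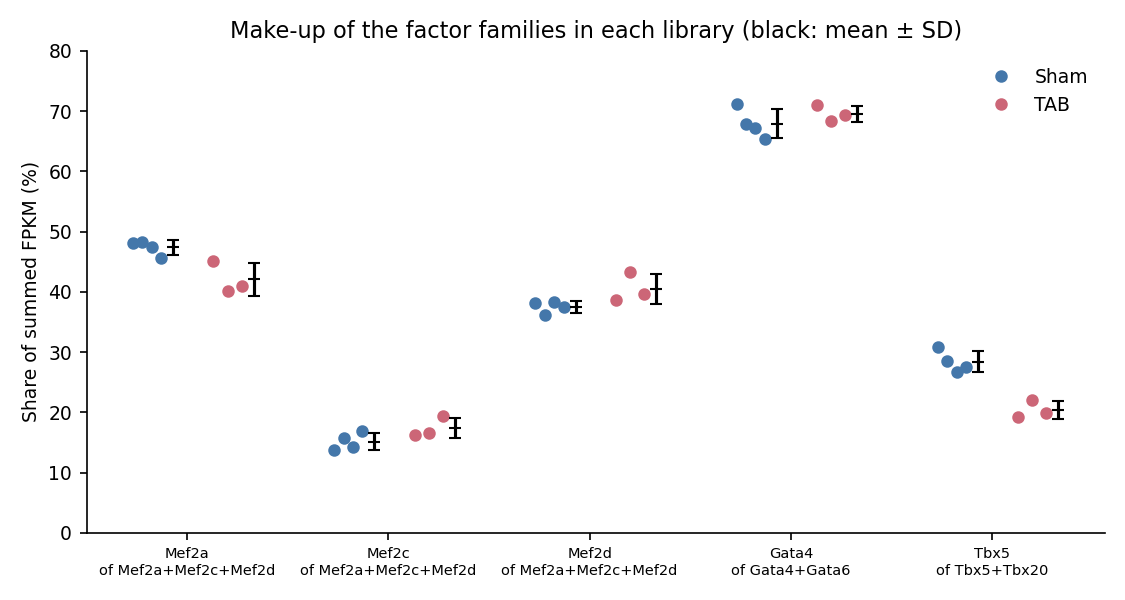
Share of each gene in the summed FPKM of its family in percent, 1 point per library (blue Sham, red TAB; black marks give the mean ± SD). The share of Tbx5 in Tbx5 plus Tbx20 shows the widest separation of the groups, 28.4% in Sham against 20.3% in TAB.

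RefSeq promoter windows (GRCm38.p6, from 250 bases before to 50 bases after a start) were at hand for 7 of the 10 factors, 10 windows in all. Matches on both strands were sought for the MEF2 site and the CArG box (the site of serum response factor), each by its consensus, for the GATA motif GATAA, for the NKX2-5 motif AAGTG, for the T-box motif AGGTGT and for the E-box CANNTG, all chosen with the values and the windows already in view. Of the 10 windows, AAGTG matched in 5, CANNTG in 6, AGGTGT in 1 and the CArG box in 1. Among all 32851 windows the shares with a match were 46.4%, 72.3%, 13.7% and 1.63%. The Mef2a window, on the minus strand of chromosome 7 at chr7:67372809-67373108, is shown since it held a MEF2 site, in capitals. The site began 2 bases before the annotated start, overlapped no other motif sought, and was the single MEF2 site in the 10 windows, where 3.19% of 32851 promoter windows held one.
Mef2a: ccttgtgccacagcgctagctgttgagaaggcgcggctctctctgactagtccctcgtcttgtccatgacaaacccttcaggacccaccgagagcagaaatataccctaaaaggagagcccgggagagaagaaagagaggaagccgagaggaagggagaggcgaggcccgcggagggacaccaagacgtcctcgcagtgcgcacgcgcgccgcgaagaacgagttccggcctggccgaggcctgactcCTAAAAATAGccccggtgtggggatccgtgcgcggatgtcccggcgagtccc

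Hopx (chr5:77086986-77115123) fell as well. It was 291, 299, 279 and 292 FPKM in Sham 1 to 4, against 231, 262 and 209 FPKM in TAB 1 to 3. The Sham libraries were close to each other (290.1 ± 8.25 FPKM, SD, n = 4), the TAB libraries were more spread out (234 ± 26.9 FPKM, SD, n = 3), and all of them lay under the lowest Sham value. The mean was 19.3% lower in TAB, a log2 fold change of -0.31 ± 0.07 SE (limma adjusted p = 0.00838). The call was kept in 17 of 18 alternative fits and narrowly lost without Sham 2 and TAB 3 (-0.22, adjusted p = 0.0517), TAB 3 being the library with the lowest Hopx value. Hopx, whose protein antagonizes serum response factor, has 2 annotated start sites in the promoter table, which a gene-level FPKM does not separate. The window at the outer start, on the minus strand at chr5:77115074-77115373, is shown for its CArG box (in capitals), which begins 83 bases before the start and overlaps none of the other motifs; 1.63% of the 32851 windows held such a box.
Hopx: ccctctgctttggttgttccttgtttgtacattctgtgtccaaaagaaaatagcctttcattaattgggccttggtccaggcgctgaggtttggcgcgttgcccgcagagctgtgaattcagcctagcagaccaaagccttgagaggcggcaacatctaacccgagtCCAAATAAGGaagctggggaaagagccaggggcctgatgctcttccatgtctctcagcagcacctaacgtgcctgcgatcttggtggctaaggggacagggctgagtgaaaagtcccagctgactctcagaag

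The gene of serum response factor itself, Srf, was 19.9 ± 1.40 FPKM (SD, n = 4) in Sham and 21.4 ± 1.75 FPKM (SD, n = 3) in TAB and was not called (log2 fold change 0.10, limma adjusted p = 0.338). Hdac2, through which HOPX acts, was 31.7 ± 1.65 (SD, n = 4) and 29.7 ± 0.162 FPKM (SD, n = 3) without overlap and was not called either (-0.09, limma adjusted p = 0.25). Both were looked at for their known link to HOPX after their values had been seen.

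Hand2 (chr8:57320983-57324517) had the highest fold change of the 10 and the widest spread. It was 11.1, 16.1, 17.7 and 23.2 FPKM in Sham 1 to 4, against 23.0, 22.1 and 26.0 FPKM in TAB 1 to 3. Sham 4 lay among the TAB libraries, and the other 3 Sham libraries lay under all of them. The mean was 39.2% higher in TAB, with a log2 fold change of 0.49 ± 0.22 SE, a 95% interval from -0.04 to 1.03 and a limma adjusted p = 0.177. Without Sham 1, the lowest library, the log2 fold change was 0.32 (limma adjusted p = 0.128), and without Sham 4, the highest Sham library, it was 0.65 and called higher (adjusted p = 0.027). Over the 18 alternative fits its adjusted p ranged from 0.00976 to 0.5. The coefficient of variation (SD over mean) of Hand2 within Sham was 29.2%, exceeded by 1.0% of the 7502 tested genes with a mean of at least 5 FPKM, whose median was 5.74%. The other 9 factors had Sham coefficients from 2.84% (Hopx) to 9.72% (Gata6). Sham 1 and Sham 4, the Sham libraries with the lowest and the highest Hand2 value, were also the Sham pair with the least atrial RNA (52.3 and 38.7 FPKM). With atrial RNA as a covariate the log2 fold change of Hand2 was 0.50 ± 0.24 SE (limma adjusted p = 0.229). Beyond that fit, a link of Hand2 to atrial RNA was not tested.

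The Hand2 window, on the plus strand at chr8:57320733-57321032, held a GATAA motif on each strand, 214 and 172 bases before the start, both in capitals below (the second reads TTATC on the strand shown) and neither overlapping another motif. Of all windows 25.4% held at least 1 GATAA. Among the 10 windows of the factors 2 did, the other being a Mef2c window, also with 2 matches. The Hand2 window is shown because Hand2 is a known target of GATA4 in the embryonic heart.
Hand2: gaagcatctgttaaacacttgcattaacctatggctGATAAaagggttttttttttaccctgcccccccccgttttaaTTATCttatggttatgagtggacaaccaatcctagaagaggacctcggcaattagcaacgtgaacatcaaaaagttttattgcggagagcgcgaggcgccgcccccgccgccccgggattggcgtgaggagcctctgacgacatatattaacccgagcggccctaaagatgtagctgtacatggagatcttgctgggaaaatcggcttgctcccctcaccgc

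The GATA factors and Nkx2-5 were not called. Gata4 (chr14:63198915-63245260), which is required for the hypertrophic response of heart muscle in mice, was 29.99, 31.6, 29.8 and 28.6 FPKM in Sham 1 to 4, against 32.2, 30.4 and 29.4 FPKM in TAB 1 to 3. The groups overlapped, and the log2 fold change of 0.03 had a 95% interval from -0.08 to 0.15 (limma adjusted p = 0.716). Gata6 (chr18:11052510-11085635), which shares many functions with Gata4, was 12.1, 14.9, 14.6 and 15.1 FPKM in Sham and 13.2, 14.1 and 13.004 FPKM in TAB (-0.07, 95% interval -0.24 to 0.10, adjusted p = 0.564). Here Sham 1 was the low library, and without it the log2 fold change of Gata6 was -0.14 (adjusted p = 0.149). Gata4 made up 67.9% ± 2.41 (SD, n = 4) of the summed FPKM of both genes in Sham and 69.5% ± 1.31 (SD, n = 3) in TAB, with overlap. That difference, 1.64 percentage points, ranged from 0.809 without Sham 4 to 2.73 without Sham 1, and was 0.937 without TAB 1.

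Nkx2-5 (chr17:26838665-26841565), the homeodomain factor that marks heart muscle cells from the embryo onwards, was 20.7, 20.8, 18.5 and 22.8 FPKM in Sham 1 to 4, against 23.1, 20.4 and 20.7 FPKM in TAB 1 to 3. The TAB libraries lay within or just above the Sham range, and the log2 fold change of 0.05 had a 95% interval from -0.11 to 0.21 (limma adjusted p = 0.686). For Gata4, Nkx2-5 and Mef2c the sign of the log2 fold change depended on the scaling, the weights or the libraries kept, so that no direction is given for them.

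**Figure D3:**
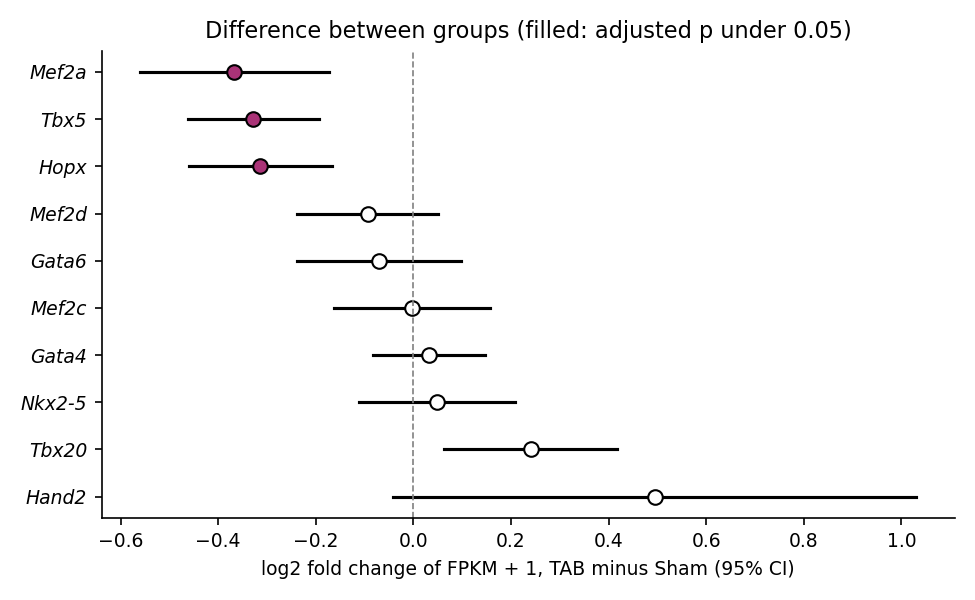
Log2 fold change of FPKM + 1 (TAB minus Sham) with its 95% confidence interval for each factor; filled points passed an adjusted p of 0.05. Mef2a, Tbx5 and Hopx lie between -0.37 and -0.31, and the interval of Hand2 is the widest, from -0.04 to 1.03.

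**Figure D4:**
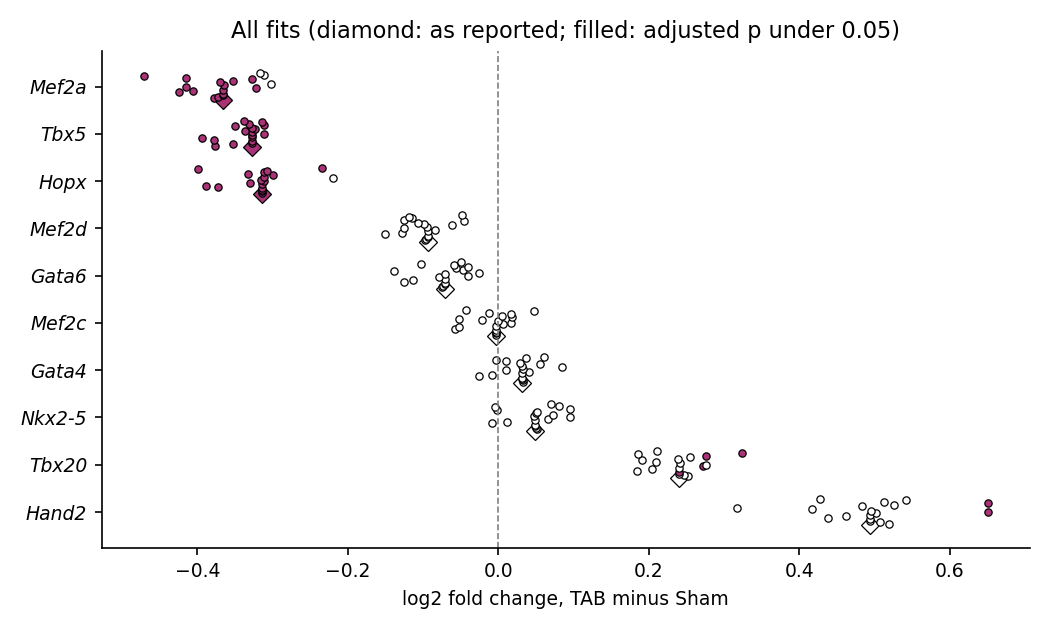
Log2 fold change of each factor in the fit as reported (diamond) and in 18 alternative fits (circles), filled where the adjusted p was under 0.05. Every point of Tbx5 is filled, 3 of Mef2a and 1 of Hopx are open, and Tbx20 and Hand2 have 4 and 2 filled points.

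Several relatives of the 10 factors were near 0. Of a list of 23 other cardiac and family factors, 11 did not pass the filter, and these included the relatives Gata3, Gata5, Nkx2-6, Tbx1, Hand1 and Mef2b, named after their values had been seen. Gata5 was at most 0.137 FPKM, Hand1 at most 0.0456 FPKM and Mef2b at most 0.276 FPKM in any library, and Nkx2-6 and Isl1, a factor of heart progenitor cells, were listed at 0 in all 7. Of the 12 tested members 1 fell, 0 rose and 11 were not called, beside 13.3% higher and 7.05% lower among all tested genes, and the median log2 fold change was 0.03. At an unadjusted p under 0.05 the number higher was 2. The one that fell was Prox1, a homeodomain factor of lymphatic endothelium and heart muscle. It was 9.15, 9.39, 8.26 and 8.84 FPKM in Sham 1 to 4, against 7.15, 6.29 and 6.26 FPKM in TAB 1 to 3, so that the groups did not overlap (log2 fold change -0.39 ± 0.07 SE, limma adjusted p = 0.00338), and it was called lower in all 18 alternative fits. Tbx3, the T-box gene next to Tbx5 on chromosome 5, was 1.87 ± 0.256 FPKM (SD, n = 4) in Sham and 1.94 ± 0.211 FPKM (SD, n = 3) in TAB and was not called (adjusted p = 0.842), and it too was chosen after its values were seen.

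Of 23 genes of cofactors and partners, all tested, 1 rose, 1 fell and 21 were not called, beside 20.3% called among all tested genes, and the median log2 fold change was -0.04. At an unadjusted p under 0.05, 3 were higher and 2 lower. Wwtr1 encodes the coactivator TAZ, which binds TBX5, and was 15.1, 15.7, 16.4 and 15.3 FPKM in Sham and 20.9, 18.04 and 17.3 FPKM in TAB, without overlap (0.24 ± 0.07 SE, limma adjusted p = 0.0273). That call was lost in 8 of 18 alternative fits. Median-of-ratios rescaling and quantile normalization were among them, and so were the fits leaving out Sham 1, Sham 2, Sham 4 or TAB 1, with an adjusted p of up to 0.112. Hdac9, a class II histone deacetylase that represses MEF2 factors, was 6.68, 7.10, 5.17 and 5.64 FPKM in Sham and 4.49, 4.18 and 5.05 FPKM in TAB, without overlap (-0.35 ± 0.10 SE, limma adjusted p = 0.0313). The call of Hdac9 was lost in 7 of 18 alternative fits, those leaving out Sham 1, Sham 2, TAB 1 or TAB 2 included, and its adjusted p reached 0.0987.

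Target genes of the factors moved in both directions. Of 28 listed, all tested, 7 rose, 11 fell and 10 were not called, beside 13.3% higher and 7.05% lower among all tested genes, and the median log2 fold change was -0.13. The 6 with the smallest adjusted p were Acta1, Hrc, Atp2a2, Tnnc1, Ankrd1 and Des. Among them the calcium-binding protein gene Hrc, a MEF2 target, was 681 ± 17.1 FPKM (SD, n = 4) in Sham and 519 ± 16.7 FPKM (SD, n = 3) in TAB (limma adjusted p = 0.000196 at a log2 fold change of -0.39 ± 0.04 SE). The calcium pump gene Atp2a2 differed by -0.48 ± 0.05 SE (adjusted p = 0.000219), and Acta1, Ankrd1, Des and Tnnc1 rose by 4.22, 2.12, 0.42 and 0.41 on the log2 scale. These 6 kept their calls in all 18 alternative fits. The list holds fetal and stretch-responsive genes beside adult calcium and conduction genes, and its members have many other regulators.

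**Figure D5:**
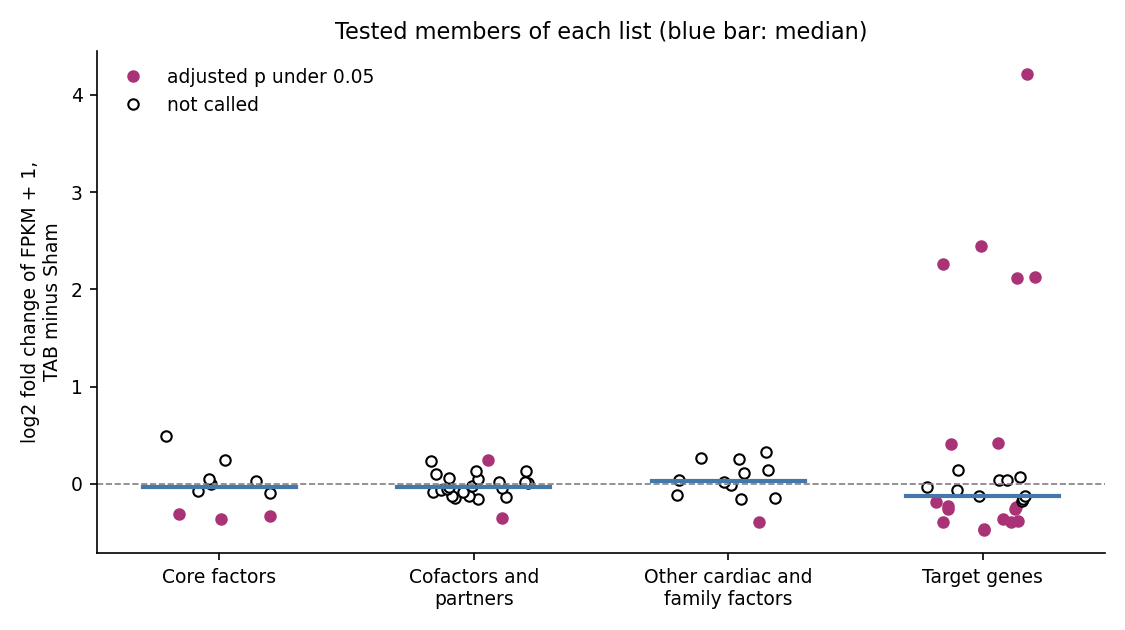
Log2 fold change of FPKM + 1 (TAB minus Sham) of every tested gene in the list of core factors, of cofactors and partners, of other cardiac and family factors, and of target genes; filled points passed an adjusted p of 0.05 and blue bars give the medians. Medians lie between -0.13 and 0.03, while the target genes reach from -0.48 to 4.22.

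The nearest tested gene on each side of each factor gave 20 neighbours, of which 1 rose, 0 fell and 19 were not called, beside 20.3% called among all tested genes. At an unadjusted p under 0.05, 2 neighbours were higher and 2 lower. The neighbour that rose was Sap30, which encodes a subunit of the SIN3 histone deacetylase complex and lies 158 kb from Hand2. It was 5.29 ± 0.565 FPKM (SD, n = 4) in Sham and 6.85 ± 0.301 FPKM (SD, n = 3) in TAB (log2 fold change 0.32 ± 0.08 SE, limma adjusted p = 0.0176), a call lost without TAB 1 (adjusted p = 0.0617), without TAB 3 (0.0609) and without both Sham 2 and TAB 3 (0.0988). No tested gene overlapped the span of any of the 10 factors in the table.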

How the data were processed

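RNA from 7 ventricular samples (4 Sham, 3 TAB) was sequenced as stranded, polyA-enriched libraries, per the labels' protocols. The authors deposited FPKM values per gene; the submitters' processing notes name TopHat, Cufflinks and the mm10 build. Their versions, parameters and annotation, or a scaling of libraries, are not stated in the labels used here. Columns were matched to samples by the column names quoted in their descriptions. Depth was estimated from low values of genes whose single GENCODE M21 transcript spans 3000 to 6000 bp, of which 63.7% to 71.4% lay within 5% of 1 to 4 whole fragments; at double that depth odd numbers of fragments were nearly absent. Counts were not recovered, so no count model was used.

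Rows reaching 1 FPKM in 3 or more libraries were tested as log2(FPKM + 1) with limma 3.58.1 in R 4.3.3 (lmFit, eBayes with trend and robust), two-sided, without covariates, adjusted over all 11601 rows at 0.05. Fold changes on that scale understate those of low genes. The fit was checked on simulated data. The members and lists were chosen with earlier results of these data known. Genes named are the 10 factors, the called members of each other list (at most 6, ranked by adjusted p), called neighbours and the atrial markers; others are marked as chosen after their values were seen. Shares were given without a test. No batch is labelled. Replicate numbers are not stated to mark a shared litter, batch or day, so they were not taken to pair libraries. Same-numbered Sham and TAB libraries correlated at 0.0807, 0.169 and 0.174 in their deviations from group means, which does not settle the matter. Of 3 TAB libraries, 2 correlated best with the Sham library of their own number. Positions count from 1. The alternatives were other pseudocounts, filters, scalings, weights, covariates and left-out libraries.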

Additional observations from a re-analysis of the deposited data

Results flagged for a closer look

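Of 28 Sham groups of 4 libraries examined for a library far from the rest (the named genes and the family shares), 1 stood out, where chance gives about 1 in 20. This was Des, which encodes the intermediate filament desmin, at 943 FPKM in Sham 4 against 867 to 879 FPKM in the other Sham libraries. No cause was tested.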

How the results depend on the processing

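The counts of called genes moved most with scaling and with the libraries kept. Over all genes 1542 were higher and 818 lower (65.3% of calls higher), against 1037 and 1251 under median-of-ratios rescaling (45.3%) and 1045 and 1225 under quantile normalization (46.0%); without Sham 2 and TAB 3 they were 951 and 402, and without 1 library the higher calls ranged from 860 (without TAB 1) to 1364. Of the 10 factors 3 were lower throughout the single left-out libraries except for 2 without TAB 2 or TAB 3, and 1 was lower without Sham 2 and TAB 3. The number higher was 1 with a filter at a mean of 5 FPKM, with array weights and with the replicate block, and 0 to 2 without 1 library. Cofactors counted 0 higher and 0 lower without a filter, 0 and 2 under either rescaling, 2 higher with array weights, 0 lower with the block or without Sham 2 and TAB 3, and 0 to 2 higher and 0 to 1 lower without 1 library. Other cardiac factors counted 1 higher with array weights, with the block and without Sham 2 and TAB 3, and 0 to 1 without 1 library. Targets counted 4 higher with the replicate block. That block gave 1238 higher and 654 lower calls in all; it sets aside Sham 4, which has no TAB library of its number, and 2 of 3 TAB libraries correlated best with the Sham library of their own number, as a hint from the data. These correlations do not settle whether libraries were paired. With the block Hand2 was called (0.65, limma adjusted p = 0.00976), at the same log2 fold change as in the fit without Sham 4. Gata4 changed sign under median-of-ratios rescaling (-0.0255), quantile normalization (-0.0088) and without 1 library (-0.0027 to 0.0611), Nkx2-5 under median-of-ratios rescaling (-0.0079) and without 1 library (-0.0044 to 0.0948), and Mef2c with array weights (0.0057), with the block (0.0173) and without 1 library (-0.0523 to 0.0469). Without 1 library the share differences ranged from -6.83 (without TAB 1) to -4.30 points for Mef2a, 1.33 to 2.88 for Mef2c, 1.61 to 3.97 for Mef2d, 0.809 to 2.73 for Gata4 and -8.88 to -7.24 for Tbx5. The causes were not tested. With 3 and 4 libraries and no counts, differences as small as those of Gata4 or Mef2c were not detectable.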
